A study of Mus musculus with 6 samples.

Results

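The VEGF family ligands and receptors were followed in monocytes sorted from mouse melanomas. The 8 members are the ligand genes Vegfa, Vegfb, Vegfc and Pgf, the receptor genes Flt1 and Kdr, and the neuropilin genes Nrp1 and Nrp2. They were taken by gene symbol, all 8 were found among the 18341 genes of the deposited table, and 7 of them reached the level required for testing. The study compared monocytes from tumours of BAFF-overexpressing cells (3 libraries) with monocytes from tumours of control cells (3 libraries). BAFF is the B cell activating factor, a cytokine of the tumour necrosis factor family. Host animals were C57BL/6 mice carrying subcutaneous tumours for 13 days, and the design text states that monocytes were sorted from the tumours. The samples' source label names instead B16.F10, a pigmented mouse melanoma line, so it does not describe sorted monocytes. The design text was followed. How BAFF was introduced, whether the cells were a clone, the age of the mice and the number of mice per library are not stated in the labels, so p-values refer to the spread between these 6 samples, which may be technical.

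VEGF-A is the main growth signal for blood vessels and acts through KDR (VEGF receptor 2) on endothelial cells. FLT1 (VEGF receptor 1) binds VEGF-A, VEGF-B and placental growth factor, the product of Pgf, and is also known from monocytes, which it makes migrate towards these ligands. VEGF-C acts mainly on lymphatic vessels. Neuropilins are co-receptors that bind VEGF-A as well as class 3 semaphorins, which signal through plexins. Vegfa is a known target of the hypoxia-inducible factors (HIF), and tumour macrophages are a known source of it.

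Values were taken as CPM, reads scaled to a common library total, a unit that was read from the values. Of that total 61.1% to 66.1% fell on listed genes in BAFF tumour libraries, and 39.8% to 65.6% in control tumour libraries. A median-of-ratios size factor (RLE), which sets the typical gene equal across libraries, was 1.07 to 1.14 in BAFF tumour libraries and 1.27, 0.904 and 0.670 in control tumour libraries 1, 2 and 3. The median log2 fold change of all tested genes, BAFF over control tumour, was 0.23 on the deposited scale and 0.0086 after size factors. Both scales are given, since several members were called only after size factors. One CPM stood for 4.72 to 27.6 reads. All 10 monocyte markers were present, and Lyz2 had 4740 to 5978 CPM in BAFF tumour libraries and 2693 to 5769 CPM in control tumour libraries. Tnfsf13b, the BAFF gene, had 1.97, 0.906 and 1.28 CPM in BAFF tumour libraries, against 1.72, 0.843 and 1.69 CPM in control tumour libraries. The overexpression was in the injected cells, so this level in sorted monocytes does not check the labels.

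The 250 bases upstream of the RefSeq transcription start (GRCm38.p6) are shown for the 3 members whose libraries were higher without overlap on both scales (Vegfa, Pgf and Kdr) and for the 2 neuropilins, called lower after size factors. Vegfb was also called lower after size factors, and its window is not printed. Of all tested genes 11.4% were higher without overlap on the deposited scale and 17.3% after size factors, where 9.91% were called lower. Each is written 5′ to 3′ along the gene's strand. Capitals mark GC boxes (GGGCGG, a motif bound by Sp1) and the core of the hypoxia response element (ACGTG or GCGTG), on either strand.
Vegfa: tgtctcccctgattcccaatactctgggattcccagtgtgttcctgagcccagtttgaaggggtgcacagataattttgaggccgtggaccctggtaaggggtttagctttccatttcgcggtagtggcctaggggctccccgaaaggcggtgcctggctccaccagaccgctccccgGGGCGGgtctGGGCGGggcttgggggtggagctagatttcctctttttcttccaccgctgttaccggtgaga
Pgf: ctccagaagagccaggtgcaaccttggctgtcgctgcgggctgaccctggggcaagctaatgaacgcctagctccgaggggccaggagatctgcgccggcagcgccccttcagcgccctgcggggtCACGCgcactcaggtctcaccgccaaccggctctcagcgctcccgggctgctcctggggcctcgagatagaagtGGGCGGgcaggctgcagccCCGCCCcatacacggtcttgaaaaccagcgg
Kdr: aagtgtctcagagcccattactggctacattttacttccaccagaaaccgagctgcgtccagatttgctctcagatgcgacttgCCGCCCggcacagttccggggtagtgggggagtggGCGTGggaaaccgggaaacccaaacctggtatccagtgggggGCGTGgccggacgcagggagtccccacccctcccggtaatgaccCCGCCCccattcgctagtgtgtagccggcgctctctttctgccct
Nrp1: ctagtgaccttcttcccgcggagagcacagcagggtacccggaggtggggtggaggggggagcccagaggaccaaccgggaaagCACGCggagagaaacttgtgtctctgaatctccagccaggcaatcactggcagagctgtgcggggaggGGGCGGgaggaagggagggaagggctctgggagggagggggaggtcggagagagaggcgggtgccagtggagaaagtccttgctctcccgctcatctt
Nrp2: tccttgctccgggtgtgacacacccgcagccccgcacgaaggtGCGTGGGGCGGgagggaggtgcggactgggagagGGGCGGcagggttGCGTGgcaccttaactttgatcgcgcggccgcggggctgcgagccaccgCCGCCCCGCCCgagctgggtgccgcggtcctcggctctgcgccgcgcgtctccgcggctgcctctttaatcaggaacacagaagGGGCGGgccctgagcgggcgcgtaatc

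The Vegfa window lies on the minus strand at chr17:46032378-46032627, that of Pgf on the minus strand at chr12:85177314-85177563, and that of Kdr on the minus strand at chr5:75978456-75978705. Nrp1 is on the plus strand at chr8:128358823-128359072 and Nrp2 on the plus strand at chr1:62703067-62703316. Vegfa and Pgf each have a second RefSeq start, whose window is not printed. The GC box was found in all 5 windows, with 2 matches each in Vegfa, Pgf and Kdr, 1 in Nrp1 and 5 in Nrp2, where overlapping matches were counted separately. Of the 32851 RefSeq windows of this length, 32.7% hold it. GCGTG was found once in Pgf and Nrp1 and 2 times in Kdr and Nrp2, against 28.2% of all windows with a match, and ACGTG, held by 16.6% of all windows, in none of the 5. The Vegfa window shown holds neither core, and bases further upstream were not searched. The window of the second Vegfa start, at chr17:46025164-46025413 on the minus strand, holds 1 match of each. That window lies downstream of the first start along the gene. Whether it covers exon sequence was not examined, so its matches cannot be read as promoter elements. The AP-1 motif TGANTCA (6.75% of all windows) and the NF-kB motif (1.41%) were found in none of the 5 windows shown. The G and C content was 59.2% in Vegfa, 61.6% in Kdr, 64.4% in Nrp1, 68.4% in Pgf and 72.4% in Nrp2, against a median of 52.4% over all windows. The Vegfb window, not printed, held 4 GC boxes, 2 matches of GCGTG and 0 of ACGTG, at 76.4% G and C. A match describes the letters only and says nothing of binding.

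Per length, Vegfa was by far the highest family member in both groups. Levels were compared as CPM per kb of merged GENCODE M21 exons, on the deposited scale. Merged exons join those of all annotated transcripts of a gene, so this length can exceed that of the RNA present. It ran from 1.605 kb for Vegfb to 13.504 kb for Flt1, and the order of members with close levels can depend on it. Vegfa had 96.4 ± 20.5 CPM per kb in BAFF tumour libraries and 48.5 ± 9.82 CPM per kb in control tumour libraries (SD, n = 3 each). The co-receptor Nrp1 followed with 10.8 ± 2.15 CPM per kb in BAFF tumour libraries and 15.4 ± 7.46 in control tumour libraries. Nrp2 had 6.32 ± 0.765 CPM per kb in BAFF tumour libraries and 7.17 ± 2.4 in control tumour libraries. Flt1, the receptor for 3 of these ligands, stood at 3.86 ± 1.87 CPM per kb in BAFF tumour libraries and 3.18 ± 0.835 in control tumour libraries. In BAFF tumour libraries the order went on with Pgf (1.91 ± 0.414 CPM per kb), Kdr (1.31 ± 0.210) and Vegfb (1.13 ± 0.245). In control tumour libraries Vegfb came before them, with 2.19 ± 0.960 CPM per kb, ahead of Pgf (0.880 ± 0.0129) and Kdr (0.673 ± 0.169). Vegfc was last in both groups, at 0.0925 ± 0.0616 CPM per kb in BAFF tumour libraries and 0.132 ± 0.0644 in control tumour libraries. Neighbours whose libraries overlapped were Nrp2 with Flt1 and Kdr with Vegfb in the BAFF tumour group, and Nrp1 with Nrp2 and Flt1 with Vegfb in the control tumour group.

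**Figure D1:**
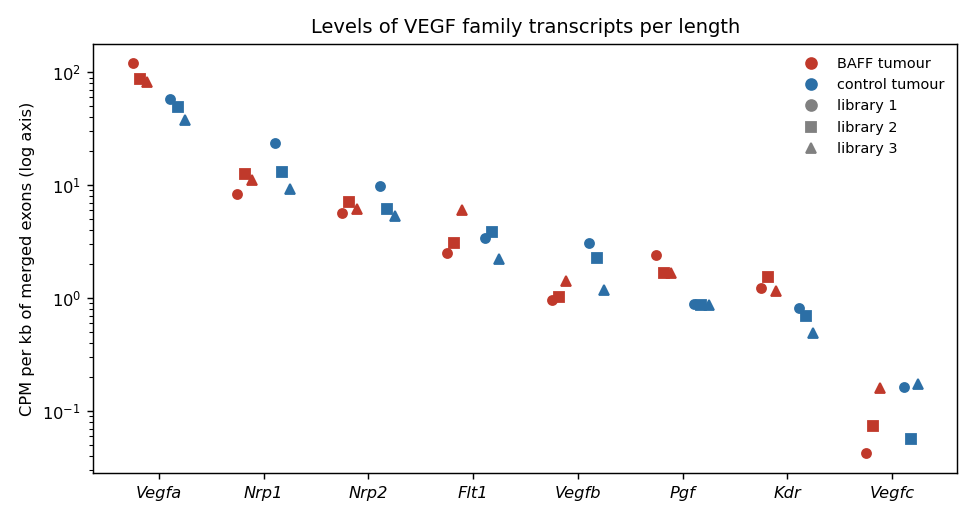
Level of each VEGF family transcript in CPM per kb of merged exons on a log axis, with 1 point per library, red for BAFF tumour and blue for control tumour. Vegfa averaged 96.4 CPM per kb in BAFF tumour and 48.5 in control tumour libraries, and Vegfc was lowest, at 0.0925 in BAFF tumour and 0.132 in control tumour libraries.

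The ligand Vegfa was higher in monocytes of BAFF tumours, and it was the 1 member called on the deposited scale, where 5.31% of all tested genes were called. It had 513, 375 and 351 CPM in BAFF tumour libraries 1, 2 and 3, against 247, 213 and 163 CPM in control tumour libraries 1, 2 and 3. Every BAFF tumour library was above every control tumour library, and BAFF tumour library 1 was the highest. Means were 413 ± 87.7 CPM in BAFF tumour libraries against 208 ± 42.1 CPM in control tumour libraries (SD, n = 3 each), a ratio of 1.99, and the log2 fold change was 0.99 ± 0.32 (SE; limma adjusted p = 0.0440). After size factors the values were 480, 328 and 329 in BAFF tumour libraries, against 195, 236 and 243 in control tumour libraries. The order of the control tumour libraries turned round, and the groups still did not overlap. The log2 fold change was then 0.74 ± 0.15, with a 95% interval of 0.41 to 1.06 (limma adjusted p = 0.00584). After size factors it passed whichever of the 6 libraries was left out (adjusted p 0.00810 to 0.0215). On the deposited scale it was lost without BAFF tumour library 1, 2 or 3 or control tumour library 2 (limma adjusted p = 0.545, 0.292, 0.215 and 0.285). It was also lost without a filter on low values (0.0565), with a minimum mean of 5 CPM (0.0616) and with the replicate number as a block (0.0736). Estimated reads behind Vegfa were 3555 to 10343 in BAFF tumour libraries and 770 to 6739 in control tumour libraries. In these bulk libraries more cells that transcribe Vegfa and more Vegfa RNA per cell cannot be told apart.

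Pgf, the gene of placental growth factor, did not pass the test on either scale. It had 6.94, 4.89 and 4.84 CPM in BAFF tumour libraries 1, 2 and 3, against 2.60, 2.53 and 2.54 CPM in control tumour libraries 1, 2 and 3. The groups did not overlap, and means were 5.56 ± 1.20 CPM in BAFF tumour libraries against 2.56 ± 0.0373 CPM in control tumour libraries (SD, n = 3 each). The control tumour libraries lay close together on this scale only. After size factors the values were 6.50, 4.29 and 4.53 in BAFF tumour libraries, against 2.05, 2.80 and 3.79 in control tumour libraries (control SD 0.873), still without overlap. The log2 fold change was 0.87 ± 0.31 (limma adjusted p = 0.0758) on the deposited scale and 0.66 ± 0.21, with a 95% interval of 0.19 to 1.13, after size factors (adjusted p = 0.0544). Without control tumour library 3 it passed on both scales (adjusted p = 0.0182 and, after size factors, 0.0235), and without control tumour library 1 on the deposited scale (0.00443). The fit without control tumour library 1 called 4615 of all 12824 tested genes higher on that scale. Control tumour libraries 2 and 3 held only 18 and 12 estimated reads of Pgf.

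Vegfb, a ligand of FLT1 that is best known from heart and muscle, was lower in BAFF tumour libraries after size factors. It had 1.55, 1.63 and 2.27 CPM in BAFF tumour libraries 1, 2 and 3, against 4.98, 3.65 and 1.91 CPM in control tumour libraries 1, 2 and 3. Control tumour library 3 lay within the BAFF tumour range on this scale, and Vegfb was not called (log2 fold change -0.63 ± 0.30; limma adjusted p = 0.277). After size factors the values were 1.45, 1.43 and 2.13 in BAFF tumour libraries, against 3.93, 4.04 and 2.84 in control tumour libraries, with no overlap. Vegfb then passed as lower (log2 fold change -0.79 ± 0.20, 95% interval -1.22 to -0.35; limma adjusted p = 0.0186). That call was lost without BAFF tumour library 1 or 2 or control tumour library 1 or 2 (adjusted p = 0.0681, 0.0850, 0.0572 and 0.0594). Vegfb rested on 9 to 136 estimated reads per library.

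A ratio within a library does not depend on that library's scale. Vegfa reads outnumbered Vegfb reads 330, 230 and 155 times in BAFF tumour libraries 1, 2 and 3, against 49.6, 58.5 and 85.6 times in control tumour libraries 1, 2 and 3. The log2 ratio was 7.83 ± 0.548 in BAFF tumour libraries and 5.97 ± 0.404 in control tumour libraries (SD, n = 3 each), a difference of 1.85 (two-sided exact permutation p = 0.1, the smallest this design allows). The lymphatic ligand Vegfc had 0.104, 0.181 and 0.395 CPM in BAFF tumour libraries and 0.402, 0.140 and 0.423 CPM in control tumour libraries. These are 1, 5 and 4 estimated reads in BAFF tumour libraries, against 11, 1 and 2 in control tumour libraries. The ranges overlapped, and Vegfc was not tested.

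**Figure D2:**
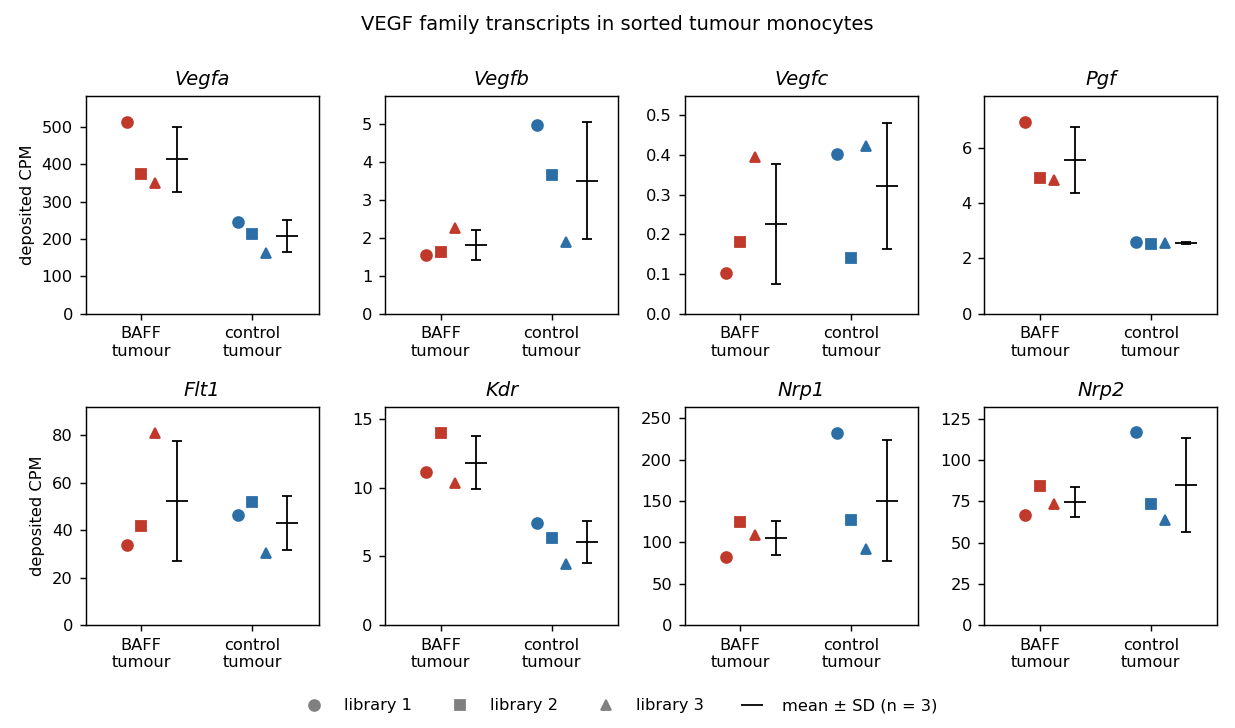
Deposited CPM of the 8 VEGF family genes in each library, with BAFF tumour on the left and control tumour on the right of each panel and the mean ± SD of 3 libraries beside the points. The BAFF tumour libraries lie above the control tumour libraries without overlap for Vegfa (351 to 513 CPM in BAFF tumour against 163 to 247 CPM in control tumour libraries), Pgf and Kdr.

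Kdr, the signalling receptor of VEGF-A, was higher in BAFF tumour libraries. It had 11.2, 14.0 and 10.4 CPM in BAFF tumour libraries 1, 2 and 3, against 7.46, 6.32 and 4.45 CPM in control tumour libraries 1, 2 and 3. The groups did not overlap, with means of 11.9 ± 1.90 CPM in BAFF tumour libraries against 6.08 ± 1.52 CPM in control tumour libraries (SD, n = 3 each). The log2 fold change was 0.87 ± 0.31 on the deposited scale, where Kdr was not called (limma adjusted p = 0.0808). After size factors the values were 10.5, 12.3 and 9.71 in BAFF tumour libraries, against 5.89, 6.99 and 6.63 in control tumour libraries, and Kdr passed (0.65 ± 0.15, 95% interval 0.33 to 0.97; adjusted p = 0.0103). That call was lost without BAFF tumour library 2 (adjusted p = 0.0643). Estimated reads of Kdr were 108, 386 and 105 in BAFF tumour libraries 1, 2 and 3, against 204, 45 and 21 in control tumour libraries 1, 2 and 3. Leaving out control tumour library 1 made Kdr pass on the deposited scale (adjusted p = 0.000502), in a fit that called 4615 of all 12824 tested genes higher.

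Kdr is a defining gene of blood endothelium, so endothelial markers are given beside it. Of 15 endothelial markers 12 were listed, and their summed level was 22.4 to 33.8 CPM in BAFF tumour libraries and 13.3 to 22.5 CPM in control tumour libraries. Most of this was Pecam1, which monocytes also transcribe, with 27.5, 25.6 and 20.6 CPM in BAFF tumour libraries and 14.9, 15.9 and 9.10 CPM in control tumour libraries. Pecam1 passed as higher after size factors (log2 fold change 0.63 ± 0.16; limma adjusted p = 0.0179), and this call was lost without BAFF tumour library 1 or 2 or control tumour library 1 (adjusted p = 0.0790, 0.0654 and 0.0606). The other 11 markers summed to 1.78 to 6.32 CPM in BAFF tumour libraries and 2.95 to 7.68 CPM in control tumour libraries. Cdh5, which encodes VE-cadherin, had 1.76, 1.30 and 0.494 CPM in BAFF tumour libraries, against 2.01, 1.69 and 0.847 CPM in control tumour libraries. Tek, the angiopoietin receptor gene, was listed at 0 in BAFF tumour library 1 and control tumour libraries 2 and 3, and 7 of the 12 markers were at 0 in at least 1 library. Flt4, the VEGF-C receptor, had 0.197 to 0.761 CPM in BAFF tumour libraries and 0.421 to 1.06 CPM in control tumour libraries.

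Flt1 had the largest residual SD of log2(CPM + 1) within groups among the 7 tested members, 0.54 on the deposited scale and 0.52 after size factors, and no difference was detected. It had 33.8, 41.7 and 80.8 CPM in BAFF tumour libraries 1, 2 and 3, against 46.4, 52.0 and 30.3 CPM in control tumour libraries 1, 2 and 3. BAFF tumour library 3 was the highest of all 6, and the other BAFF tumour libraries lay within the control tumour range. The log2 fold change was 0.21 ± 0.32 on the deposited scale (limma adjusted p = 0.749) and -0.038 ± 0.26 after size factors (adjusted p = 0.944). The 95% interval after size factors, -0.61 to 0.54, does not show that the groups were alike. Without BAFF tumour library 3 the value after size factors was -0.41 (adjusted p = 0.139).

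Nrp1, the more abundant neuropilin, was lower in BAFF tumour libraries after size factors. It had 82.6, 124 and 109 CPM in BAFF tumour libraries 1, 2 and 3, against 232, 128 and 91.7 CPM in control tumour libraries 1, 2 and 3. The groups overlapped on this scale, where control tumour library 1 stood far above the rest, and Nrp1 was not called (log2 fold change -0.42 ± 0.32; limma adjusted p = 0.536). After size factors the values were 77.3, 109 and 102 in BAFF tumour libraries, against 183, 141 and 137 in control tumour libraries, with no overlap. Nrp1 then passed as lower (-0.67 ± 0.15, 95% interval -0.99 to -0.36; adjusted p = 0.00780), and it did so whichever of the 6 libraries was left out (adjusted p 0.0109 to 0.0304). Without control tumour library 3 it also passed on the deposited scale (adjusted p = 0.0490).

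Nrp2 was also lower after size factors. It had 66.6, 84.6 and 73.2 CPM in BAFF tumour libraries 1, 2 and 3, against 117, 73.6 and 63.9 CPM in control tumour libraries 1, 2 and 3, with overlap (log2 fold change -0.14 ± 0.32; limma adjusted p = 0.840). After size factors it had 62.4, 74.1 and 68.6 in BAFF tumour libraries, against 92.5, 81.4 and 95.4 in control tumour libraries, without overlap. Nrp2 passed as lower on that scale (-0.39 ± 0.10; adjusted p = 0.0249), and this call was lost without BAFF tumour library 1 or 3 or control tumour library 1 or 3 (adjusted p = 0.106, 0.0518, 0.0675 and 0.0805). Nrp1 reads outnumbered Nrp2 reads 1.24, 1.47 and 1.49 times in BAFF tumour libraries and 1.98, 1.73 and 1.43 times in control tumour libraries. The log2 ratio differed by -0.29 (0.480 ± 0.148 in BAFF tumour libraries against 0.766 ± 0.234 in control tumour libraries; two-sided exact permutation p = 0.3), and the groups overlapped.

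**Figure D3:**
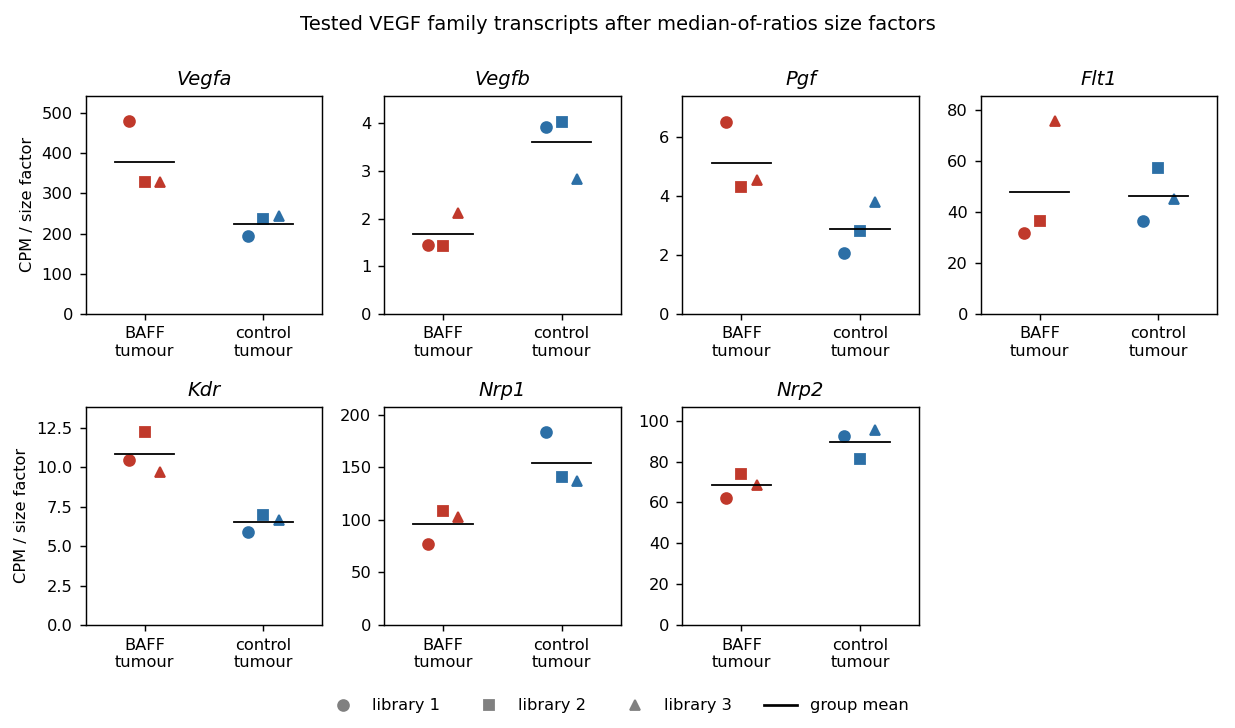
CPM divided by the median-of-ratios size factor for the 7 tested members, 1 point per library and a line at each group mean, with BAFF tumour on the left. Vegfb, Nrp1 and Nrp2 lie lower in BAFF tumour libraries and Vegfa, Pgf and Kdr higher, without overlap, while Flt1 overlaps.

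Markers of other cells are given beside these results. The 10 melanoma markers summed to 85.9 to 177 CPM in BAFF tumour libraries and 429 to 742 CPM in control tumour libraries, none was at 0 in any library, and 8 of the 9 tested were called lower on both scales. Dct, a pigment enzyme gene, had 59.5, 52.8 and 31.1 CPM in BAFF tumour libraries, against 264, 174 and 167 CPM in control tumour libraries. The 10 tumour macrophage markers summed to 2846 to 3166 CPM in BAFF tumour libraries and 2802 to 6366 CPM in control tumour libraries, with 0 called on the deposited scale (limma; 2 lower at an unadjusted p under 0.05) and 6 called lower after size factors. The 10 monocyte markers summed to 9898 to 11298 CPM in BAFF tumour libraries and 5381 to 9873 CPM in control tumour libraries, with 2 called higher on the deposited scale and 5 after size factors. The 7 listed neutrophil markers summed to 176 to 238 CPM in BAFF tumour libraries and 87.6 to 194 CPM in control tumour libraries. Of these, 4 were called higher on the deposited scale (S100a8, S100a9, Cxcr2 and Lcn2) and 2 different ones after size factors (Csf3r and Retnlg). No neutrophil marker was called on both scales. Fibroblast and pericyte markers summed to 37.2 to 61.7 CPM in BAFF tumour libraries and 34.9 to 261 CPM in control tumour libraries, where control tumour library 1 held the highest sum. The 7 conventional dendritic cell markers summed to 25.6 to 41.6 CPM in BAFF tumour libraries and 16.3 to 35.6 CPM in control tumour libraries, and 1 was at 0 in at least 1 library. The list was mixed, with 2 of the 6 tested called higher on both scales and 0 called lower. At an unadjusted limma p under 0.05, 1 of the 6 was lower on the deposited scale and 2 were lower after size factors. The median log2 fold change of the 6 was -0.13 on the deposited scale and -0.30 after size factors. One of the 2 called higher, Cd209a, which monocyte-derived dendritic cells also transcribe, had 12.6, 17.9 and 25.4 CPM in BAFF tumour libraries, against 9.51, 5.76 and 7.62 CPM in control tumour libraries. The other, Flt3, named after its values were seen, had 4.46, 3.66 and 4.05 CPM in BAFF tumour libraries, against 2.34, 0.983 and 1.27 CPM in control tumour libraries. On the deposited scale both calls were lost without BAFF tumour library 2 or 3 or control tumour library 2 (limma adjusted p at most 0.339 for Cd209a and 0.296 for Flt3), and that of Flt3 also without BAFF tumour library 1 (0.209). After size factors the call of Cd209a was lost without BAFF tumour library 2 or 3 or control tumour library 1 or 2 (adjusted p at most 0.0774), and that of Flt3 without BAFF tumour library 1 (0.0537). Of the plasmacytoid dendritic, T and NK, and lymphatic endothelial markers, 0 were called on either scale (limma; 1 lymphatic marker was higher at an unadjusted p under 0.05 on the deposited scale and 1 plasmacytoid marker lower after size factors). The part of these cells in the members' differences was not tested.

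Over the family, 1 of 7 tested members was called on the deposited scale, where 5.31% of the 12824 tested genes were called (1.81% higher and 3.5% lower). After size factors 5 of 7 were called, 2 higher (Vegfa and Kdr) and 3 lower (Vegfb, Nrp1 and Nrp2), where 17.1% of tested genes were called (7.18% higher and 9.91% lower). The groups did not overlap for 3 of 7 members on the deposited scale and for 6 of 7 after size factors, all 3 higher on the deposited scale, and 3 higher and 3 lower after size factors. Among all tested genes 18% (11.4% higher and 6.6% lower) and 35.2% (17.3% and 17.8%) did not overlap on these scales. Of the 7 members, 3 higher and 1 lower had an unadjusted p under 0.05 on the deposited scale. The median log2 fold change of the 7 was 0.21 on the deposited scale, against 0.23 over all tested genes, and -0.038 after size factors, against 0.0086. On the deposited scale the spread between libraries was pooled over all genes of similar level, so an SE there is not from the gene's own spread.

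**Figure D4:**
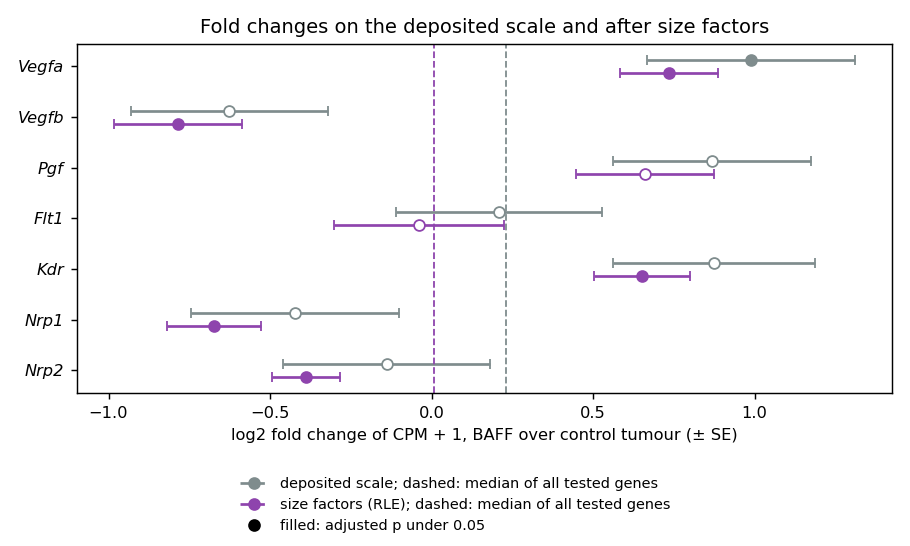
Log2 fold change of CPM + 1, BAFF over control tumour, with SE, for the 7 tested members on the deposited scale (grey) and after size factors (purple); filled points had an adjusted p under 0.05 and dashed lines are the medians of all tested genes. Vegfa was filled on both scales, at 0.99 and 0.74, and Kdr, Vegfb, Nrp1 and Nrp2 only after size factors.

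The genes whose pattern over the 6 libraries was most like a member's were taken by the smallest root mean square difference of centred log2(CPM + 1) after size factors. For Vegfa they were Plcb1, a phospholipase C gene (difference 0.0753), the predicted gene Gm10108 (0.0997) and Prdx6, which encodes a peroxiredoxin (0.101), where the median over tested genes was 0.455. For Nrp1 they were Mmp27 (0.0669), the kinesin gene Kif18a (0.0720) and Nudt19 (0.0832), with a median of 0.440. For Nrp2 they were Mitf, which encodes a transcription factor of pigment cells and osteoclasts (0.0409), C2cd2l (0.0435) and Phtf1 (0.0497), with a median of 0.299. These are descriptions over 6 libraries.

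Of 67 tested genes of the wider pathway outside the family, 4 were called higher and 4 lower on the deposited scale, and 14 higher and 11 lower after size factors. Over all 12824 tested genes 1.81% were called higher and 3.5% lower on the deposited scale, and 7.18% higher and 9.91% lower after size factors. The lower counts include Sema3b and Fgf1 on both scales and Apln after size factors, which reached the level for testing only through the control tumour libraries. Among 8 oxygen sensing genes, Hif1a, the oxygen-regulated HIF subunit that activates Vegfa, was higher. It had 383, 376 and 328 CPM in BAFF tumour libraries, against 228, 180 and 147 CPM in control tumour libraries (log2 fold change 0.99 ± 0.32, limma adjusted p = 0.0449; after size factors 0.73 ± 0.11, adjusted p = 0.000794). The deposited call of Hif1a was lost without BAFF tumour library 1, 2 or 3 or control tumour library 2 (adjusted p = 0.393, 0.402, 0.251 and 0.329), without a filter (0.0543), with a 5 CPM minimum (0.0625) and with a replicate block (0.0783), and the call after size factors passed in all 6 such fits. Vhl, which targets HIF for destruction, passed as higher only after size factors (0.50 ± 0.15; adjusted p = 0.0398), and not without BAFF tumour library 1 or 2 or control tumour library 1 or 3 (adjusted p at most 0.164), nor with upper-quartile factors (0.0633) or a block added to RLE factors (0.0527). Egln3, an oxygen-sensing hydroxylase gene, did not pass on either scale (adjusted p = 0.0898 and, after size factors, 0.0531), and Egln1, another hydroxylase gene, had 91.7, 72.7 and 77.6 CPM in BAFF tumour libraries and 67.8, 63.8 and 48.3 CPM in control tumour libraries.

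Of 14 tested HIF target genes, 1 was called higher and 0 lower on the deposited scale, and 8 higher and 1 lower after size factors. Their median log2 fold change was 0.74 on the deposited scale, against 0.23 over all tested genes, and 0.49 after size factors, against 0.0086. Called higher after size factors were Slc2a1, Bnip3, Ndrg1, Ankrd37, Pfkfb3, Ero1l, Ddit4 and Mxi1. Bnip3 (limma adjusted p = 0.0422, with groups overlapping on both scales) and Mxi1 (0.0448) lay near the threshold. Besides Ldha, the targets P4ha1, Pgk1, Hk2 and Adm were not called after size factors (adjusted p = 0.0537, 0.210, 0.245 and 0.735). Ddit4, a stress-induced inhibitor of mTOR, had 50.6, 31.5 and 36.5 CPM in BAFF tumour libraries, against 16.9, 20.2 and 16.7 CPM in control tumour libraries (log2 fold change 1.07 ± 0.32, limma adjusted p = 0.0196; after size factors 0.83 ± 0.22, adjusted p = 0.0248). The deposited call of Ddit4 was lost without BAFF tumour library 1, 2 or 3 or control tumour library 2 (adjusted p = 0.437, 0.123, 0.184 and 0.130), and the call after size factors without BAFF tumour library 1 or 3 or control tumour library 1 (0.0996, 0.0567 and 0.0651). The glucose transporter gene Slc2a1 (log2 fold change 0.58 ± 0.15; adjusted p = 0.0179), Ndrg1 (0.55 ± 0.14) and Ankrd37 (0.58 ± 0.16) passed after size factors. The calls were lost without BAFF tumour library 1 or 2 or control tumour library 1 for Slc2a1 (adjusted p at most 0.0756), and without BAFF tumour library 1 or control tumour library 1 for Ndrg1 (0.0756 and 0.0650). Ankrd37 kept its call only without control tumour library 2 (0.0126). Ldha, the most abundant of the list, had 876, 821 and 664 CPM in BAFF tumour libraries and 749.9, 662 and 440 CPM in control tumour libraries, and did not pass (adjusted p = 0.582 and, after size factors, 0.580). Car9, a carbonic anhydrase gene singled out after its values were seen, was the target that passed as lower after size factors (-0.86 ± 0.18; adjusted p = 0.00654).

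Class 3 semaphorins bind neuropilins. Of 7 class 3 semaphorins 4 were listed and only Sema3b was tested, with 0.415, 0.942 and 0.691 CPM in BAFF tumour libraries, against 3.88, 2.25 and 1.69 CPM in control tumour libraries. It was lower (log2 fold change -1.07 ± 0.30; limma adjusted p = 0.0116; after size factors -1.19 ± 0.20, adjusted p = 0.00191). Sema3b reached the level for testing only through the control tumour libraries, so its call supports nothing by itself. Its deposited call was lost without BAFF tumour library 1, 2 or 3 or control tumour library 2 (adjusted p = 0.218, 0.0754, 0.121 and 0.0509). Plxna1, a plexin that signals with neuropilins, had 87.1, 101 and 106 CPM in BAFF tumour libraries, against 166, 124 and 91.7 CPM in control tumour libraries. It was lower after size factors (-0.59 ± 0.10; adjusted p = 0.00192) and not called on the deposited scale (adjusted p = 0.613). Plxnd1 (-0.18 ± 0.13 after size factors; adjusted p = 0.365) and Plxna3 (-0.06 ± 0.21; adjusted p = 0.882) did not pass on either scale, and on the deposited scale their values were above 0, at 0.06 and 0.10.

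Other secreted vessel regulators were tested beside the family. Of 9 tested angiogenic factors outside the family, 0 were called higher and 2 lower on the deposited scale, and 0 higher and 3 lower after size factors. Pdgfc, a platelet-derived growth factor gene, had 3.01, 3.41 and 4.34 CPM in BAFF tumour libraries, against 17.5, 11.1 and 5.93 CPM in control tumour libraries (log2 fold change -1.35 ± 0.31, limma adjusted p = 0.00117; after size factors -1.55 ± 0.19). The deposited call of Pdgfc was lost without BAFF tumour library 1 or 2 (adjusted p = 0.0708 and 0.0554). Fgf1, a fibroblast growth factor gene, had 0.311, 0.181 and 0.197 CPM in BAFF tumour libraries, against 3.48, 0.843 and 1.69 CPM in control tumour libraries (-1.19 ± 0.30; limma adjusted p = 0.00275). Fgf1 and the apelin gene Apln, which passed as lower after size factors (-0.87 ± 0.20; adjusted p = 0.0120), reached the level for testing only through the control tumour libraries. Without BAFF tumour library 2 or 3 the deposited call of Fgf1 was lost (adjusted p = 0.0726 and 0.0632). Hgf, the hepatocyte growth factor gene, had 16.8, 18.04 and 19.1 CPM in BAFF tumour libraries, against 18.3, 10.4 and 4.87 CPM in control tumour libraries, and did not pass (adjusted p = 0.133 and, after size factors, 0.0664).

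Of 8 tested angiogenesis inhibitors, 1 was called higher and 0 lower on both scales. This was Thbs1, the gene of the matrix protein thrombospondin 1, with 8538, 6478 and 5984 CPM in BAFF tumour libraries, against 3909, 2717 and 3235 CPM in control tumour libraries. Its log2 fold change was 1.09 ± 0.33 (limma adjusted p = 0.0236) and 0.84 ± 0.22 after size factors (adjusted p = 0.0224), without overlap. The deposited call of Thbs1 was lost without BAFF tumour library 1, 2 or 3 or control tumour library 2 (adjusted p = 0.387, 0.187, 0.0998 and 0.294) and without a filter (0.184), and the call after size factors without BAFF tumour library 1 or 2 or control tumour library 1 or 2 (0.0958, 0.0542, 0.0671 and 0.0808) or with a block (0.0598). Col18a1, the source of endostatin, had 1.24, 0.689 and 0.888 CPM in BAFF tumour libraries, against 7.06, 1.12 and 1.06 CPM in control tumour libraries. Its high value was in control tumour library 1, which also had the highest fibroblast marker sum and the largest size factor (1.27). A link between these was not tested.

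Among 7 tested enzymes that process or release VEGF, 0 were called on the deposited scale (limma; 2 higher and 0 lower at an unadjusted p under 0.05), and 1 higher and 1 lower after size factors. Mmp14, a membrane metalloproteinase gene, had 96.6, 89.0 and 72.9 CPM in BAFF tumour libraries, against 60.7, 34.97 and 42.3 CPM in control tumour libraries (after size factors 0.67 ± 0.16; adjusted p = 0.0145). Leaving out BAFF tumour library 1 or 2 ended that call (adjusted p = 0.0612 and 0.0528). Plau, the urokinase gene, had 185, 204 and 181 CPM in BAFF tumour libraries, against 339, 244 and 144 CPM in control tumour libraries (after size factors -0.52 ± 0.11; adjusted p = 0.00636). Furin, the proprotein convertase gene that also cuts VEGF-C, had 243, 181 and 247 CPM in BAFF tumour libraries, against 152, 152 and 112 CPM in control tumour libraries, and did not pass (adjusted p = 0.248 and, after size factors, 0.0926).

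Of 17 tested receptor signalling and adaptor genes, 1 was called higher and 1 lower on the deposited scale, and 2 higher and 4 lower after size factors. Gab1, a docking protein gene, had 72.4, 57.1 and 53.9 CPM in BAFF tumour libraries, against 42.0, 29.6 and 22.6 CPM in control tumour libraries (log2 fold change 0.97 ± 0.32, limma adjusted p = 0.0458; after size factors 0.72 ± 0.12, adjusted p = 0.00206). Ptk2, the focal adhesion kinase gene, had 4.98, 4.49 and 2.96 CPM in BAFF tumour libraries, against 13.8, 10.3 and 5.08 CPM in control tumour libraries (-0.99 ± 0.31, adjusted p = 0.0338; after size factors -1.19 ± 0.20, adjusted p = 0.00181). The deposited calls of Gab1 and Ptk2 were lost without BAFF tumour library 1, 2 or 3 or control tumour library 2 (adjusted p at most 0.504 for Gab1 and 0.455 for Ptk2). With a 5 CPM minimum the adjusted p was 0.0625 for Gab1 and 0.0599 for Ptk2, with a block 0.0963 for Gab1, and without a filter 0.0629 for Ptk2. Both passed after size factors whichever library was left out. Src and the adaptor gene Nck2 were also lower after size factors (-0.99 ± 0.17 and -0.95 ± 0.20). The phospholipase C genes, named after their values were seen, differed in direction on that scale. Plcg1, the form that KDR signals through, was lower (-0.72 ± 0.15; adjusted p = 0.00560) and Plcg2, the form of blood cells, was higher (0.40 ± 0.11; adjusted p = 0.0216). The call of Plcg2 was lost without BAFF tumour library 2 or 3 or control tumour library 2 or 3 (adjusted p = 0.0798, 0.0645, 0.0513 and 0.0643).

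**Figure D5:**
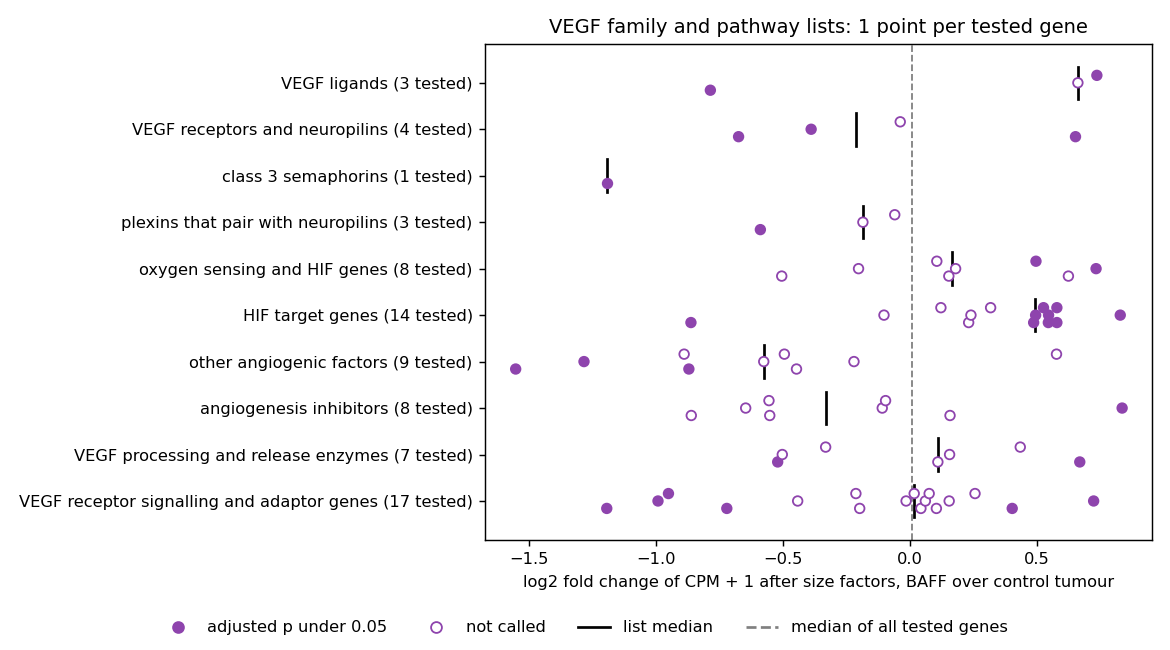
Log2 fold change after size factors, BAFF over control tumour, of each tested gene of the VEGF family and the pathway lists, with filled points for an adjusted p under 0.05, a bar at each list's median and a dashed line at the median of all tested genes, 0.0086. The HIF target median lies at 0.49, with 8 of 14 genes called higher, while no other angiogenic factor was called higher.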

How the data were processed

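One deposited table of 18341 genes was used, which does not name its unit, and its values were taken as CPM. The unit was read from the values: in each library 82.2% to 84.5% of low values were whole multiples, within 0.02, of a common step taken as 1 read, too few for a count model. One control tumour column was matched by title although its name lacks a letter. Partek, STAR 2.4.1d and Bowtie2 2.2.5 are named in the submitters' processing notes, without roles. Genome build, annotation and counting rule are not given there. Libraries were made with a TruSeq RNA kit, per the labels' protocols, a kit that does not mark strand. Of the symbols, 18238 matched GENCODE M21, in which member exons overlap no other listed gene.

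limma-trend (limma 3.58.1, R 4.3.3) used log2(CPM + 1) as deposited, for 12824 genes averaging at least 1 CPM, and called genes at a Benjamini-Hochberg adjusted p under 0.05. The pseudocount understates fold changes of low genes. Prior degrees of freedom were infinite on the deposited scale and 7.79 (median) after size factors, which were computed on the tested genes. The fit was also run on simulated data in which every gene had the same setting for spread between libraries. Its outcome is not given here, and no call rests on it. Errors are SD for levels and SE for fold changes, and estimated reads carry counting error only. A naming rule took the members, from each pathway list the 4 genes with the smallest p and the most abundant gene, the 3 most abundant of each marker list, and 3 like genes for each of the 3 most abundant members. Not every gene so taken is printed, and several marker lists are given by sums and counts only. Some genes outside the rule were added, several of them after their values were seen, so the naming is not free of selection. Members and lists were chosen with earlier results of these data known. Alternatives covered 3 size factors, 2 filters, a pseudocount of 0.1, a replicate block and each library left out. Promoter sequences are RefSeq's (GRCm38.p6), where all 8 members matched by symbol.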

Additional observations from a re-analysis of the deposited data

How the results depend on the processing

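With RLE, upper-quartile and trimmed mean (TMM) factors, 2192, 2080 and 2165 genes were called instead of 681, 5 of 7 tested members instead of 1, and 25, 23 and 25 pathway genes instead of 8. Without a low-value filter 0 members were called, and with a 5 CPM minimum 316 genes, 0 members and 3 pathway genes. Vegfa had limma adjusted p = 0.0565 and 0.0616 there, and 0.0435 with a pseudocount of 0.1. A replicate block left 0 members (Vegfa adjusted p = 0.0736), and with RLE it gave 1940 genes, 5 members and 22 pathway genes. Deviations of same-numbered libraries from their group means had correlations of -0.049, 0.052 and -0.039, and those of other pairs ran from -0.055 to 0.089. With 3 libraries per group this cannot decide whether the numbers pair libraries, and the labels do not say. Leaving out 1 library gave 167 to 5192 genes, 0 to 4 members and 0 to 35 pathway genes on the deposited scale, and 1334 to 1821 genes, 3 to 5 members and 15 to 24 pathway genes after RLE factors. The count of 5192 came without control tumour library 1, where the median log2 fold change of all genes was 0.43.

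Some genes not called on the deposited scale changed direction, among them Nrp2 and Plau, which were called lower after RLE factors and were above 0 on the deposited scale without control tumour library 1 (0.12 and 0.016). With RLE, upper-quartile, TMM and blocked RLE fits, Flt1 was at -0.038, -0.085, -0.044 and -0.038, Plxna3 at -0.060, -0.094, -0.064 and -0.060, and Plxnd1 at -0.18, -0.23, -0.19 and -0.18. With 1 library left out on either scale, Flt1 ran from -0.41 to 0.46, Nrp2 from -0.46 to 0.12, Plxna3 from -0.22 to 0.44, Plxnd1 from -0.27 to 0.31, Serpinf1 from -0.87 to 0.081, Timp3 from -0.93 to 0.15, Mmp2 from -0.78 to 0.13 and Plau from -0.63 to 0.016. Why settings differ was not tested. Depth limits Vegfb, Vegfc and Pgf, which had under 20 estimated reads in at least 1 library. Kdr was little above this, with 45 and 21 estimated reads in control tumour libraries 2 and 3.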
